A study of Mus musculus with 2 samples.

Results

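The genes described here are 7 members of the TNF receptor superfamily, Tnfrsf1a, Tnfrsf1b, Tnfrsf9, Tnfrsf11b, Tnfrsf12a, Ltbr and Cd40. They were chosen by name, with earlier results of these data known. All 7 were among the 17139 genes measured in endothelial cells (ECs) of implanted tumours. The study asked how ECs of a tumour respond when the STING pathway is switched on in the tumour by cGAMP, a cyclic dinucleotide. The droplet-based scRNA-seq data hold 2 libraries. In both, male C57BL/6J mice of 8 to 9 weeks carried LLC cells, a Lewis lung carcinoma line of the same strain, under the skin of the flank, and live CD31+ CD45- cells were sorted from the tumour. The PBS library came from a tumour injected with 70 µl of PBS, and the cGAMP library from a tumour injected with 14 µg of cGAMP in the same volume. Tumours were sampled 24 h after injection by the methods, although 6 h is also stated for the same data. Each library is 1 mouse, so differences between the libraries are given as sizes without a test, and every interval printed is a 95% interval that covers counting error and no spread between mice.

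The receptors of this superfamily bind trimeric ligands of the TNF family outside the cell and recruit adaptors of the TRAF or death-domain kind inside it. Tnfrsf1a (TNFR1) and Tnfrsf1b (TNFR2) are the receptors of TNF, and in ECs TNF signalling through NF-kB is known for inducing adhesion molecules and chemokines. Ltbr and Cd40 are also known for activating the alternative NF-kB pathway, which in ECs goes with the venules through which lymphocytes enter tissue. Tnfrsf12a (Fn14) is the receptor of TWEAK, Tnfrsf9 (4-1BB, CD137) is best known as a costimulatory receptor of activated T cells, and Tnfrsf11b (osteoprotegerin) is a secreted decoy that binds RANKL and TRAIL.

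The positions of the genes are those of GENCODE vM21 on GRCm38. Tnfrsf1a lies on chromosome 6 from 125349362 to 125362484 on the plus strand. Ltbr lies 35.5 kb away, from 125306571 to 125313885 on the minus strand, and 1 protein-coding gene, Scnn1a, separates them. Tnfrsf1b, from 145213463 to 145246870 on the minus strand, and Tnfrsf9, from 150914562 to 150946102 on the plus strand, are both on chromosome 4. Tnfrsf11b is on chromosome 15 from 54250619 to 54278484 and Tnfrsf12a on chromosome 17 from 23675445 to 23677468, both on the minus strand. Cd40 is on chromosome 2 from 165055627 to 165072948 on the plus strand. Tnfrsf9 was the only one of the 7 to overlap another annotated gene, Camta1, which is on the opposite strand.

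RefSeq start sites on GRCm38.p6 were found for 5 of the 7 genes, and 3 stretches are shown because their letters stand beside a pattern described further on. Short motifs of 5 kinds were searched on both strands from 250 bases before to 50 after each start site. The interferon motif ISRE was searched as GAAA and GAAA with any 2 bases between and is in 3.44% of the 32851 windows of this kind, and the kB motif of NF-kB as GGG, any 2 bases, TT, any 1 base and CC, in 4.79%. The STAT motif GAS was searched as TTCNNNGAA and is in 8.30%, the hypoxia motif HRE as ACGTG, in 19.6%, and AP-1 as TGANTCA, in 7.81%. ISRE and GAS matches can share bases, and no overlap between motifs was removed. In the lines below, matches are in capitals and each sequence is read 5′ to 3′ along the gene.
Tnfrsf1b, the 250 bases before the start site, chr4:145246871-145247120, minus strand: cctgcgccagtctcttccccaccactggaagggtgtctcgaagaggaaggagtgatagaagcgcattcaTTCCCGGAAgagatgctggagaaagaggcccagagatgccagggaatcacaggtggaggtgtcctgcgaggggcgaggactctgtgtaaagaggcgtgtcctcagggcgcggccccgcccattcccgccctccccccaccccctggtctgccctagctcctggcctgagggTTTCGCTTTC
Tnfrsf9, 30 bases around the kB match of its second start site, chr4:150927947-150927976, plus strand: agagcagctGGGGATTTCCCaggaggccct
Tnfrsf12a, the 231 bases before its annotated exon, chr17:23677469-23677699, minus strand: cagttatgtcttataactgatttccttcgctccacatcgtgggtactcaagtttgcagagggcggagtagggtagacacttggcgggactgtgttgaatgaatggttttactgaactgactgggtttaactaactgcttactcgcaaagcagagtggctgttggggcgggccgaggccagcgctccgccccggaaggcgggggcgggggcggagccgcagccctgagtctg
Tnfrsf1b held 1 ISRE match next to its start site and 1 GAS match. The second start site of Tnfrsf9 held 2 overlapping kB matches, which make the capitals above, an AP-1 match 15 bases before the start site and a GAS match, while the first start site held none of the 5 motifs. Tnfrsf12a held none of them. Of the genes not shown, Tnfrsf1a held a GAS match and Ltbr 2 overlapping HRE matches. A match is a description of letters, and no binding was measured here.

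The PBS library held 2517 ECs with 92081146 UMIs (unique molecular identifiers, each standing for 1 captured transcript), at a median of 29780 per cell, and the cGAMP library 1340 ECs with 63366746 UMIs at a median of 41178. The endothelial markers Pecam1 and Cdh5 were at 944 and 1146 CPM (UMIs scaled to the same library total for each library) in the PBS library and at 824 and 1008 CPM in the cGAMP library. The 5 leucocyte markers measured summed to 7.09 CPM (6.56 to 7.66) in the PBS library and 24.1 CPM (22.9 to 25.4) in the cGAMP library, with Ptprc, which encodes CD45, at 0.250 and 0.5997 CPM. At least 1 UMI of a leucocyte marker was present in 18.0% of ECs of the PBS library and 49.9% of those of the cGAMP library. Pericyte markers summed to 31.7 and 38.8 CPM and fibroblast markers to 7.22 and 2.97 CPM. The 4 lymphatic EC markers measured summed to 12.7 and 45.0 CPM, most of it Lyve1 (10.2 and 43.6 CPM), whereas Prox1 was at 2.01 and 0.994 CPM. More than 5% mitochondrial UMIs were found in 855 ECs of the PBS and 92 of the cGAMP library. The part of such RNA in the results was not tested. The libraries shared 1 cell barcode.

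The 7 receptors were present at very different levels, and in both conditions Tnfrsf9 and Tnfrsf1a were the most abundant of them. Each UMI comes from the 3′ end of a transcript, so that CPM of different genes can be compared without a correction for length. Tnfrsf9 was at 315 CPM (311 to 318) in the PBS library and 249 CPM (246 to 253) in the cGAMP library, which placed it above 97.4% and 96.5% of all genes. Tnfrsf1a was at 185 CPM (182 to 188) and 191 CPM (187 to 194). Tnfrsf12a was at 75.2 CPM (73.4 to 77.0) in the PBS library and 118 CPM (115 to 120) in the cGAMP library, and Ltbr at 62.7 CPM (61.1 to 64.4) and 61.8 CPM (59.8 to 63.7). Tnfrsf1b, the second TNF receptor, was about an order of magnitude below the first, at 17.5 CPM (16.7 to 18.4) and 14.4 CPM (13.5 to 15.4). Tnfrsf11b was at 4.82 CPM (4.38 to 5.29) and 2.43 CPM (2.06 to 2.85). Cd40 was at 3.41 CPM (3.04 to 3.81) and 6.19 CPM (5.59 to 6.83). The order of the upper 5 was the same in both libraries with no overlap of neighbouring intervals within a library, and Cd40 and Tnfrsf11b changed places at the bottom.

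**Figure D1:**
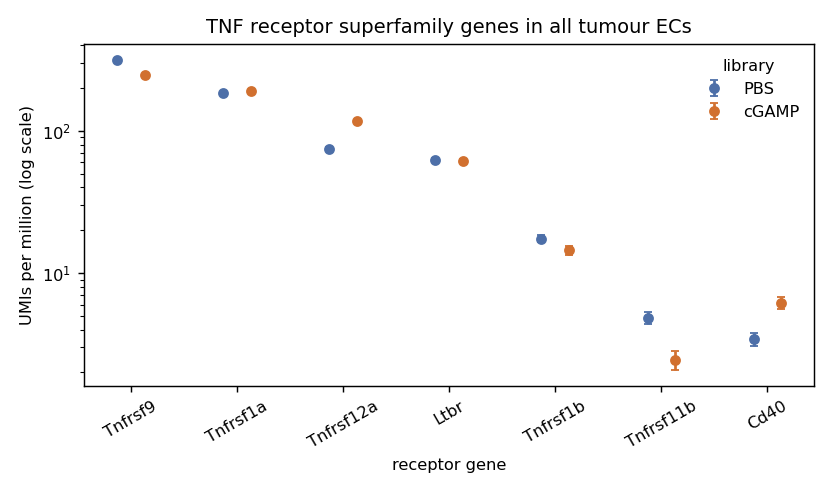
Summed UMIs in CPM (log scale) of the 7 receptor genes over all ECs of the PBS (blue) and cGAMP (orange) libraries, 1 mouse each, with exact Poisson 95% intervals of counting error, which are smaller than the points for the abundant genes. The levels span from 315 CPM for Tnfrsf9 to 2.43 CPM for Tnfrsf11b, and Tnfrsf12a and Cd40 are the 2 genes whose cGAMP point lies well above the PBS point.

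Between the libraries, Tnfrsf12a and Cd40 were higher in cGAMP-treated ECs, Tnfrsf9 and Tnfrsf1b were somewhat lower, and Tnfrsf1a and Ltbr were nearly level. Of the 6 receptors that reached 5 CPM in one library or the other, 2 were at least 1.5-fold higher in the cGAMP library, against 4.53% of all 9509 such genes. Cd40 reached 5 CPM in the cGAMP library only (6.19 against 3.41 CPM), so it entered these counts through the library where it was higher. None was at least 1.5-fold lower, against 7.41% of those genes, with Tnfrsf11b, at 4.82 CPM in the PBS library, just short of the minimum. The median log2 ratio was 0.01 over the 6 receptors and -0.08 over all 9509 genes. Tnfrsf12a had a log2 ratio of cGAMP over PBS of 0.64 (0.60 to 0.69), or 1.56-fold, and with cells above 5% mitochondrial UMIs left out it was 0.57, which is short of 1.5-fold. Cd40, at 314 UMIs in the PBS and 392 in the cGAMP library, had a log2 ratio of 0.86 (0.64 to 1.08), or 1.81-fold. Tnfrsf9 had a log2 ratio of -0.33 (-0.36 to -0.31), and Tnfrsf1b of -0.28 (-0.40 to -0.16). The ratios of Tnfrsf1a, at 0.04 (0.01 to 0.07), and Ltbr, at -0.02 (-0.08 to 0.04), lay close to those of most genes.

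Tnfrsf11b did not reach 5 CPM in either library and is outside these counts. Its log2 ratio was -0.99 (-1.26 to -0.72), but its UMIs sat in few cells. In the cGAMP library 1 cell held 39 of its 154 UMIs, and the 5 cells with the most held 42.9% of them. Without the cell with the most UMIs in each library, the log2 ratio of Tnfrsf11b was -1.36 (-1.67 to -1.06). For the other 6 receptors the 5 cells with the most held between 1.07% and 6.38% of the UMIs, and leaving out the top cell moved no log2 ratio by more than the width of its own interval.

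Since cGAMP-treated ECs had more UMIs per cell, shares of cells with a UMI were compared after each cell was thinned to 5000 UMIs, at a loss of 70 ECs from the PBS library and 13 from the cGAMP library. Thinned, 28.8% (27.0 to 30.6) of ECs in the PBS library and 39.3% (36.7 to 42.02) in the cGAMP library had a Tnfrsf12a UMI, and unthinned 73.4% and 85.4%. Tnfrsf9 was found in 57.9% (56.0 to 59.9) and 50.9% (48.1 to 53.6) after thinning, and in 81.9% and 77.5% before. Tnfrsf1a was found in 59.5% and 62.5%, Ltbr in 26.1% and 24.9%, and Tnfrsf1b in 10.2% and 7.61% of thinned ECs of the PBS and cGAMP libraries. Unthinned, Tnfrsf1a was in 94.6% and 97.8%, Ltbr in 77.6% and 85.3%, and Tnfrsf1b in 41.2% and 44.6%. Intervals were exact (Clopper-Pearson).

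Cd40 and Tnfrsf11b were too rare for their shares to be read as expression by single cells. Thinned ECs had a Cd40 UMI in 1.88% (1.38 to 2.50) of the PBS and 2.79% (1.97 to 3.82) of the cGAMP library, and Tnfrsf11b in 1.59% (1.14 to 2.17) and 1.21% (0.691 to 1.95). The macrophage gene Lyz2, which ECs should lack, was found in 2.04% (1.52 to 2.69) and 5.05% (3.93 to 6.37) of the same cells, so both receptors were at or below this background. ECs that carried a leucocyte UMI had overlapping intervals with the other ECs for Cd40, at 3.095 CPM (2.41 to 3.91) against 3.51 CPM (3.09 to 3.98) in the other PBS-treated ECs, and at 6.51 CPM (5.72 to 7.39) against 5.72 CPM (4.84 to 6.71) in the other cGAMP-treated ECs. Tnfrsf11b was at 6.28 CPM (5.29 to 7.40) with and 4.35 CPM (3.87 to 4.87) without a leucocyte UMI in the PBS library, with no overlap, and at 2.71 CPM (2.21 to 3.29) and 2.03 CPM (1.52 to 2.66) in the cGAMP library. Without all ECs that carried a leucocyte UMI, the log2 ratio was 0.70 for Cd40 and 0.61 for Tnfrsf12a. Tnfrsf9 was at 328 CPM with and 310 CPM without a leucocyte UMI in PBS-treated ECs, and at 244 and 257 CPM in cGAMP-treated ECs.

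Most ECs carried RNA of several of the receptors. Unthinned, only 0.834% of ECs of the PBS library and 0.299% of those of the cGAMP library had no UMI of any of the 7, and 34.6% and 36.0% had UMIs of 4 of them. Thinned to 5000 UMIs, the most frequent number was 2 receptors, in 38.2% and 37.7% of ECs.

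The ECs were clustered without the 7 receptors and without variable genes that differed at least 2-fold between the libraries, which gave 8 clusters. A cluster was named where at least 3 markers of a state were raised 2-fold and markers of that state led it. The stalk-like (venous) cluster, led by Ackr1 and Selp, held 338 PBS-treated and 334 cGAMP-treated ECs, the proliferative-like cluster, led by Ube2c and Cenpf, 484 and 179, and the arterial-like cluster, led by Gja4 and Nts, 359 and 182. A first tip-like cluster, led by Gal and Chga, held 379 and 130 ECs. A second tip-like cluster, led by Pgf, Bnip3, Ankrd1 and Adm, among them genes known from hypoxia, held 106 and 64. Unnamed were a cluster led by Ramp3 and Igfbp3 (611 and 260 ECs) and one led by Ung and Hells (191 and 139), with the DNA replication genes Cdc6 and Mcm5 among its leading genes. Also unnamed was a small one led by Igfbp5 and Ctsh (49 and 52), in which all 10 stalk-like markers were raised but none was among its 10 leading genes. Levels within a cluster were compared as CPM of the UMIs of that cluster.

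Tnfrsf9 ran from the Pgf/Bnip3 tip-like ECs at the top to the arterial-like ECs at the bottom, a span of 9.80-fold in the PBS and 6.61-fold in the cGAMP library. The span of Tnfrsf12a was 3.73-fold and 6.89-fold. The level of Tnfrsf9 was 834 CPM (805 to 864) in the Pgf/Bnip3 tip-like cluster of the PBS library and 561 CPM (534 to 589) in that of the cGAMP library. Next came the Ramp3/Igfbp3 cluster, at 432 CPM (423 to 440) and 351 CPM (341 to 362), in which Tnfrsf9 was the 12th of all genes by its level over the other ECs. The Gal/Chga tip-like cluster followed at 334 CPM (325 to 343) and 289 CPM (276 to 303). Below these, the proliferative-like cluster, at 257 and 236 CPM, and the Ung/Hells cluster, at 241 and 226 CPM, had overlapping intervals in both libraries. The stalk-like cluster was at 230 CPM (220 to 241) and 168 CPM (162 to 175), and the Igfbp5/Ctsh cluster at 175 CPM (151 to 201) and 251 CPM (226 to 278), below the stalk-like cluster in the PBS library and above it in the cGAMP library. Arterial-like ECs had the lowest level, 85.1 CPM (79.1 to 91.5) and 84.9 CPM (77.6 to 92.8).

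Tnfrsf12a shared its highest state with Tnfrsf9 and differed from it lower down. It was at 151 CPM (138 to 164) and 246 CPM (228 to 265) in the Pgf/Bnip3 tip-like cluster. At least 2-fold higher than in the other ECs of both libraries, in this cluster, were 2 receptors, Tnfrsf9 (2.85-fold and 2.40-fold) and Tnfrsf12a (2.09-fold and 2.21-fold), against 2.49% of 9768 genes. Tnfrsf11b was at least 2-fold lower there (5.96% of genes), but from only 2 UMIs in the PBS and 1 in the cGAMP library. The interval of its log2 ratio over the other ECs reached -0.40 in the cGAMP library, so a 2-fold lower level is not shown. With a coarser clustering (resolution 0.3) or without integration, Tnfrsf9 and Tnfrsf12a were highest in a cluster led by Pgf and Gal. Over the other ECs, Tnfrsf9 was then higher by 0.81 and 0.71 on the log2 scale, and Tnfrsf12a by 0.57 and 0.49. These values are short of 2-fold, so the 2-fold calls of both receptors rest on the clustering. The lowest level of Tnfrsf12a was in the Igfbp5/Ctsh cluster, at 40.4 CPM (29.4 to 54.2) and 35.7 CPM (26.6 to 47.0).

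Tnfrsf1a and Ltbr, the 2 neighbours on chromosome 6, ran the other way. Tnfrsf1a was highest in the Igfbp5/Ctsh cluster, at 300 CPM (269 to 335) and 308 CPM (279 to 338), and in the stalk-like cluster, at 278 CPM (267 to 290) and 237 CPM (229 to 245). It was lowest in the Pgf/Bnip3 tip-like cluster, at 98.2 CPM (88.3 to 109) and 124 CPM (112 to 138), and next lowest in the Gal/Chga tip-like cluster, at 134 CPM (128 to 139) and 145 CPM (136 to 155), with intervals that overlapped in the cGAMP library only. Ltbr varied less, between 40.4 CPM (34.2 to 47.4) in the Pgf/Bnip3 tip-like and 77.0 CPM (71.1 to 83.3) in the stalk-like cluster of the PBS library. In the cGAMP library all neighbouring clusters in the order of Ltbr had overlapping intervals. Over the 16 points given by 8 clusters in 2 libraries, the log2 levels of Tnfrsf1a and Ltbr had a Pearson r of 0.94, and Tnfrsf1a was the gene most like Ltbr of 6045 genes. Scnn1a, between them, was at 0.673 and 0.726 CPM. The points of 1 library share its depth and cells, so r is a description.

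Tnfrsf1b did not follow Tnfrsf1a across the states (r of 0.15 over the same 16 points). Its level in the Pgf/Bnip3 tip-like cluster, where Tnfrsf1a was lowest, was 28.5 CPM (23.3 to 34.5) and 31.8 CPM (25.7 to 38.9), next to the highest in the PBS library and the highest in the cGAMP library. The interval of that cluster overlapped that of the Igfbp5/Ctsh cluster, at 31.2 CPM (21.6 to 43.6) and 21.7 CPM (14.8 to 30.8), in both libraries. The proliferative-like cluster had the lowest level, at 13.6 and 9.92 CPM, though its interval overlapped that of its neighbour in both libraries. With a coarser clustering (resolution 0.3) or without integration, Tnfrsf1b was highest in a cluster led by Igfbp5 that held Ackr1 among its leading genes, by 0.42 and 0.46 on the log2 scale over the other ECs, and Tnfrsf1a was highest in the same cluster, so the contrast between these receptors rests on the clustering.

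Of the 2 least abundant receptors, Tnfrsf11b was found mainly in the Gal/Chga tip-like cluster, at 18.7 CPM (16.6 to 20.95) and 13.6 CPM (10.9 to 16.8), with 297 of its 444 UMIs in the PBS library and 88 of its 154 in the cGAMP library, of which 39 were those of 1 cell. It was 9.69-fold and 11.7-fold higher there than in the other ECs, which held it at 1.93 and 1.16 CPM. In this cluster 2.37% of genes with at least 5 CPM in it or in the other ECs were at least 2-fold higher. Tnfrsf11b passed this minimum only through the cluster where it was high, so the share cannot be used as support. Its next level, in arterial-like ECs, was 4.11 CPM (2.88 to 5.70) and 4.31 CPM (2.79 to 6.36). It was at least 2-fold lower than in all other ECs in the Ramp3/Igfbp3 cluster, from 35 and 13 UMIs (3.37% of genes). The same held in the stalk-like cluster, from 1 and 11 UMIs (4.77% of genes). Most Tnfrsf11b UMIs of the other ECs were those of the Gal/Chga cluster, so these lower values are not separate from that peak. For these lower calls Tnfrsf11b reached 5 CPM only in the other ECs. No UMI was found in the Igfbp5/Ctsh cluster, which allows up to 3.39 CPM in the PBS and 2.58 CPM in the cGAMP library. Cd40 was highest in the Igfbp5/Ctsh cluster, at 11.9 CPM (6.36 to 20.4) and 14.7 CPM (9.11 to 22.5) from 13 and 21 UMIs, 3.61-fold and 2.46-fold above the other ECs, where 6.7% of genes were at least 2-fold higher. All neighbouring clusters in the order of Cd40 had overlapping intervals in both libraries, and the state in which Cd40 was highest changed with the clustering. Tnfrsf9 was at least 2-fold lower in arterial-like ECs (4.44% of genes).

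**Figure D2:**
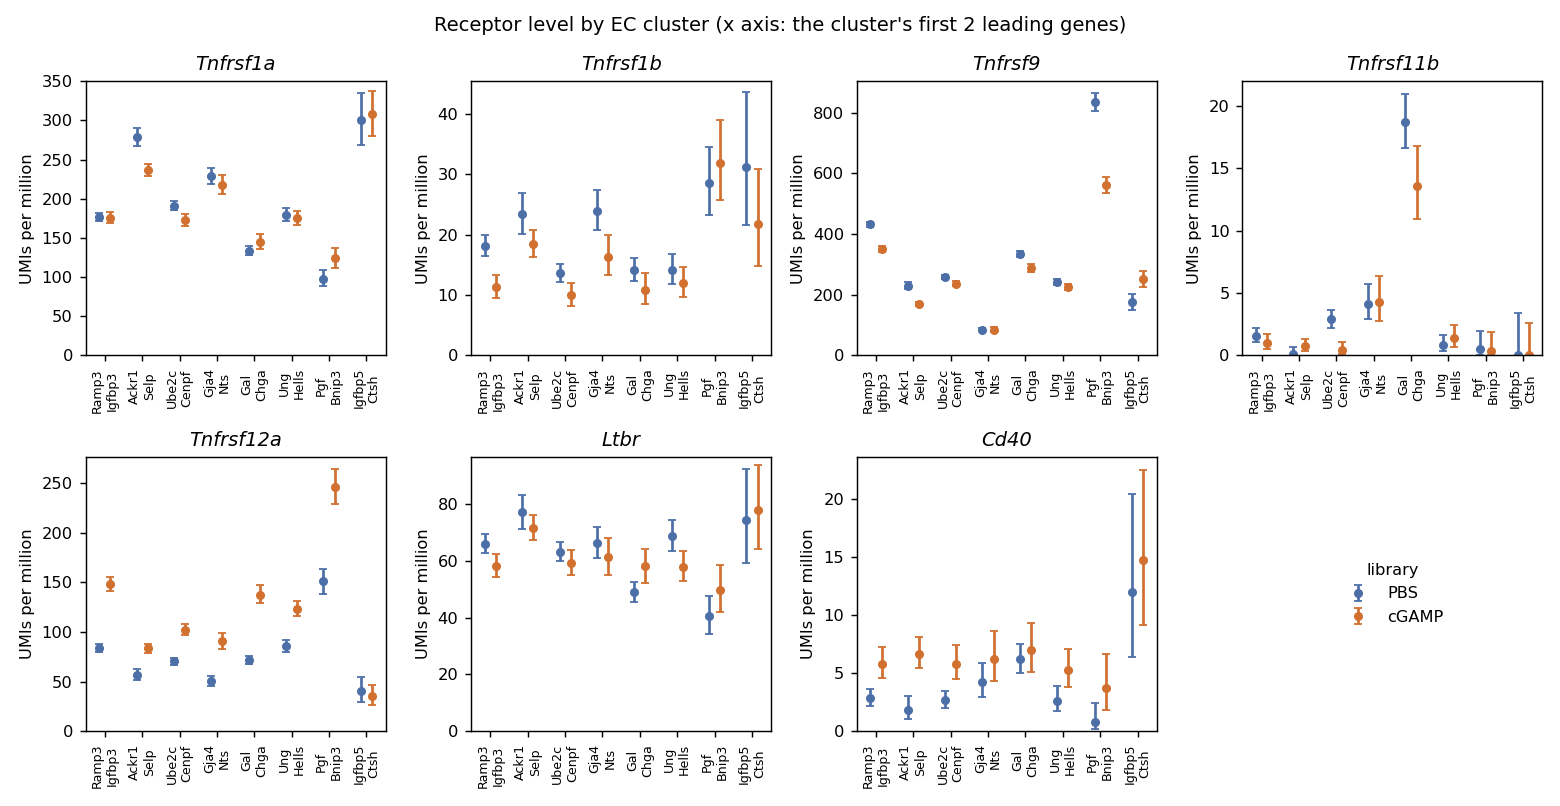
CPM of each receptor in the 8 EC clusters, named by their first 2 leading genes, for the PBS (blue) and cGAMP (orange) libraries, with exact Poisson 95% intervals; each panel has its own scale from 0. Tnfrsf9 and Tnfrsf12a peak in the Pgf/Bnip3 cluster, where Tnfrsf1a and Ltbr are lowest, and Tnfrsf11b stands out in the Gal/Chga cluster.

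The genes whose levels over the 16 points were most like each receptor differed between the receptors. For Tnfrsf1a they were Tal1, a transcription factor of endothelial and blood cells, Zhx3 and Lrg1, a venous marker, with r of 0.97, 0.97 and 0.96. Tnfrsf9 was most like Msn, which encodes the membrane linker moesin, the tropomyosin gene Tpm1 and Snx24 (0.94, 0.92 and 0.91). Tnfrsf12a was most like Drap1, Angptl4, a gene known from hypoxia, and Znhit6 (0.96, 0.94 and 0.93). For Tnfrsf1b they were Filip1l, Eif4a2 and Bcar1 (0.95, 0.92 and 0.91), and for Cd40 Tmem158, Sdhaf4 and Ppil2 (0.93, 0.91 and 0.88). After Tnfrsf1a, Ltbr was most like the NF-kB regulator Bcl3 (0.91) and Tal1 (0.90). Tnfrsf11b had the weakest likenesses, with Sigirr, Mtmr11 and Rap1a (0.85 each).

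The higher level of Tnfrsf12a in the cGAMP library was found in 7 of the 8 clusters, each with an interval above 0. Within clusters its log2 ratio of cGAMP over PBS ran up to 0.94 (0.81 to 1.07), in the Gal/Chga tip-like cluster, and was -0.18 (-0.79 to 0.44) in the Igfbp5/Ctsh cluster. Cd40 was higher in the cGAMP library in all 8 clusters, and in 5 of them the interval lay above 0. Its log2 ratio was 1.86 (1.06 to 2.75) in the stalk-like cluster, from 15 and 98 UMIs, and 0.17 (-0.37 to 0.70) in the Gal/Chga tip-like cluster, from 98 and 45. The level of Cd40 differed between these 2 clusters in the PBS library, at 1.84 CPM (1.03 to 3.04) and 6.17 CPM (5.01 to 7.52), and was close in the cGAMP library, at 6.67 CPM (5.41 to 8.13) and 6.96 CPM (5.07 to 9.31). The share of all genes with as many intervals above 0 was not computed, and the clusters of a library are parts of 1 mouse. By cluster, 4.50% to 12.4% of genes with at least 5 CPM were at least 1.5-fold higher in the cGAMP library.

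Tnfrsf1b was lower in the cGAMP library in 7 of 8 clusters, with intervals below 0 in 4, and its lowest log2 ratio was -0.68 (-0.96 to -0.40) in the Ramp3/Igfbp3 cluster. Tnfrsf9 was lower in 7 of 8 clusters, with intervals below 0 in 6. The share of all genes with as many intervals below 0 was not computed either. By cluster, 6.74% to 17.5% of genes with at least 5 CPM were at least 1.5-fold lower in the cGAMP library. The log2 ratio of Tnfrsf9 was -0.57 (-0.66 to -0.49) in the Pgf/Bnip3 tip-like cluster and -0.45 (-0.54 to -0.36) in the stalk-like cluster, and close to 0 in arterial-like ECs (-0.17 to 0.16). Only in the Igfbp5/Ctsh cluster was Tnfrsf9 higher in the cGAMP library, by 0.52 (0.27 to 0.78). Tnfrsf1a was near level over all ECs, yet lower in the stalk-like cluster, by -0.23 (-0.31 to -0.16), and higher in the Pgf/Bnip3 tip-like cluster, by 0.34 (0.13 to 0.55). Its ratio was also below 0 in the proliferative-like cluster, at -0.14 (-0.22 to -0.06), and above 0 in the Gal/Chga tip-like cluster, at 0.12 (0.01 to 0.23). With the proportions of all 8 clusters held equal, the log2 ratio of Tnfrsf1a was -0.04. Stalk-like ECs were 13.4% of the PBS and 24.9% of the cGAMP library, and the part of any 1 cluster in this shift was not tested.

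**Figure D3:**
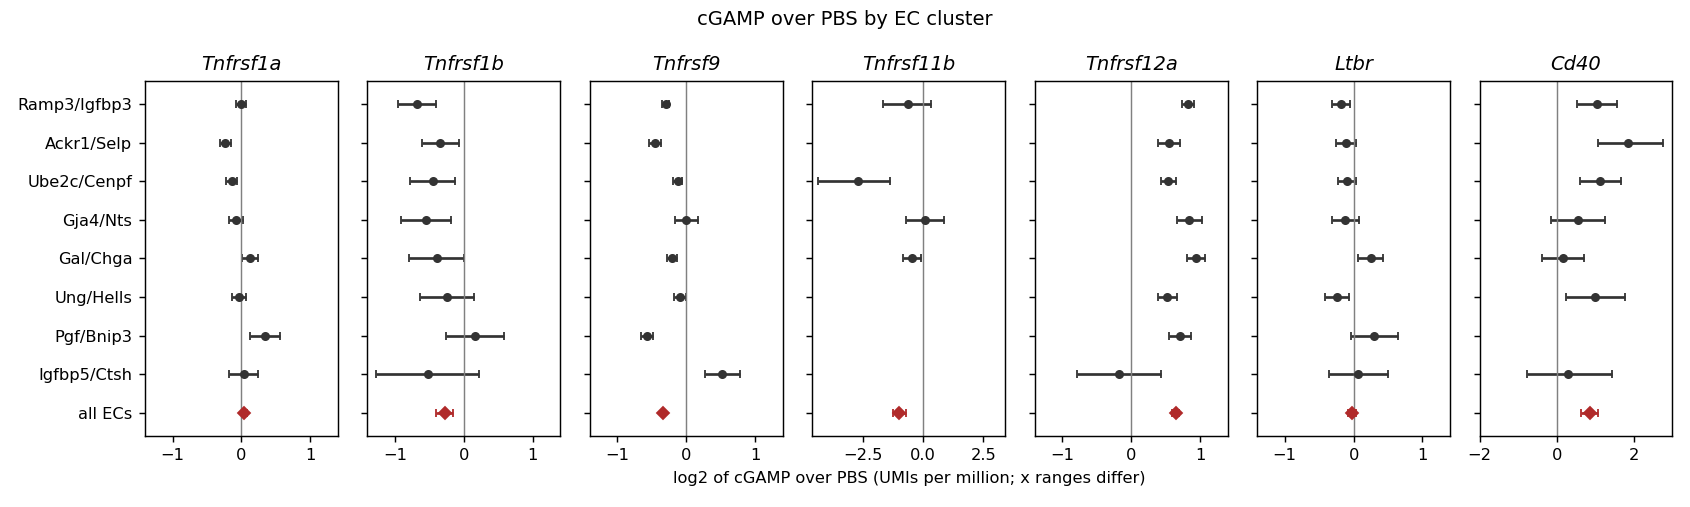
Log2 ratio of cGAMP over PBS of each receptor in the 8 clusters (black, named by 2 leading genes) and over all ECs (red diamonds), with exact conditional binomial 95% intervals; clusters with fewer than 20 UMIs of a gene over both libraries are not drawn, and the x range differs for Tnfrsf11b and Cd40. Tnfrsf12a lies above 0 in all but the Igfbp5/Ctsh cluster, and Tnfrsf9 at or below 0 in all but that cluster.

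The receptors were then read against the activity of interferon genes in the same cell. For each thinned EC the UMIs of 25 interferon-induced genes, among them Irf7, Isg15, Bst2, Ifit3, Zbp1 and Irgm1, were summed out of 5000. The score was 8 or less in most PBS-treated ECs and 9 or more in most cGAMP-treated ECs. Tnfrsf9 moved with this score in opposite directions in the 2 libraries. In the PBS library its level was 271 CPM (266 to 277) in the 923 ECs with scores of 0 to 4, 300.0 CPM (294 to 306) at 5 to 8, 351 CPM (342 to 360) at 9 to 16, 429 CPM (414 to 445) at 17 to 32, and 440 CPM (420 to 460) in the 110 ECs with 33 or more. In the cGAMP library it was 313 CPM (293 to 335) in the 64 ECs with 5 to 8, 315 CPM (306 to 325) at 9 to 16, 267 CPM (261 to 274) at 17 to 32, and 183 CPM (177 to 188) in the 447 ECs with 33 or more. At scores of 5 to 8 the intervals of the libraries overlapped, and at 33 or more the PBS level was more than 2 times the cGAMP level.

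The pattern of Tnfrsf9 was also found within the clusters. When each cluster was divided into tertiles by its interferon score, Tnfrsf9 was higher in the highest than in the lowest tertile in 8 of 8 clusters of the PBS library, with an interval above 0 in 7. In the cGAMP library it was lower in the highest tertile in 7 of 8 clusters, each with an interval below 0, and the exception was the Gal/Chga tip-like cluster, which has the interferon gene Rsad2 among its 10 leading genes. In cGAMP-treated stalk-like ECs Tnfrsf9 was at 293 CPM in the lowest and 99.8 CPM in the highest tertile, and in PBS-treated stalk-like ECs at 196 and 256 CPM. Over all clusters, the log2 ratio of the highest over the lowest tertile was 0.47 (0.43 to 0.52) in the PBS library, above 97.7% of 9483 genes, and -0.87 (-0.92 to -0.81) in the cGAMP library, below all but 0.886% of them. Only 6 of the 9483 genes, Tnfrsf9 among them, were at least as high in the first and at least as low in the second. Over all ECs, the highest tertile began at a score of 8 in the PBS library and of 33 in the cGAMP library, so tertiles of the libraries do not hold cells of the same score.

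Tnfrsf1b and Cd40 were higher in the ECs of highest interferon score in both libraries. The upstream sequence of Tnfrsf1b shown above ends in an ISRE match, and no link between these letters and its level was tested. Tnfrsf1b was at 14.8 CPM (13.6 to 16.2) at scores of 0 to 4 and 27.2 CPM (22.4 to 32.7) at 33 or more in the PBS library. In the cGAMP library it was at 11.1 CPM (7.61 to 15.7) at 5 to 8 and 18.2 CPM (16.5 to 20.1) at 33 or more. In each of the 4 upper bands Tnfrsf1b was lower in the cGAMP than in the PBS library, with intervals that overlapped for none of them. Cd40 was at 2.83 CPM (2.30 to 3.45) at 0 to 4 and 10.7 CPM (7.83 to 14.4) at 33 or more in the PBS library. Among cGAMP-treated ECs Cd40 was at 5.91 CPM (3.44 to 9.46) at 5 to 8, 5.28 CPM (4.15 to 6.62) at 9 to 16, 5.27 CPM (4.37 to 6.30) at 17 to 32 and 7.67 CPM (6.58 to 8.89) at 33 or more. Up to a score of 32 the cGAMP level of Cd40 showed no increase, and the intervals at 5 to 8 and 9 to 16 overlapped that of the top band. Within clusters the log2 ratios of highest over lowest tertile were 0.42 (0.24 to 0.61) and 0.52 (0.28 to 0.76) for Tnfrsf1b and 0.57 (0.17 to 0.97) and 0.64 (0.29 to 0.997) for Cd40 in the PBS and cGAMP libraries.

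Tnfrsf12a, the receptor with the clearest difference between the libraries among the abundant ones, hardly varied with the score over all clusters together. Its log2 ratio of highest over lowest tertile was -0.12 (-0.21 to -0.04) in the PBS and -0.03 (-0.11 to 0.05) in the cGAMP library. Single clusters went both ways, with intervals above 0 in 4 and below 0 in 2 of the 8 clusters of the cGAMP library, and below 0 in 2 of the PBS library. For cGAMP-treated ECs the log2 ratio of Tnfrsf12a was 0.48 (0.26 to 0.70) in the stalk-like and -0.60 (-0.85 to -0.36) in the Gal/Chga tip-like cluster. It was higher in the cGAMP library at the same score, at 122 CPM (110 to 136) against 73.6 CPM (70.4 to 76.8) for scores of 5 to 8, and at 121 CPM (117 to 126) against 69.0 CPM (61.2 to 77.4) for 33 or more. Tnfrsf1a and Ltbr varied by no more than 0.12 on the log2 scale between these tertiles. Tnfrsf11b was higher in PBS-treated ECs of high score, at 1.65 (1.25 to 2.05). Its ratio in the cGAMP library over all clusters was -0.69 (-1.23 to -0.16), but only the Gal/Chga tip-like cluster, which holds the cell with 39 UMIs, had an interval below 0, at -2.57 (-3.64 to -1.64), and 3 other clusters had intervals above 0 from few UMIs.

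**Figure D4:**
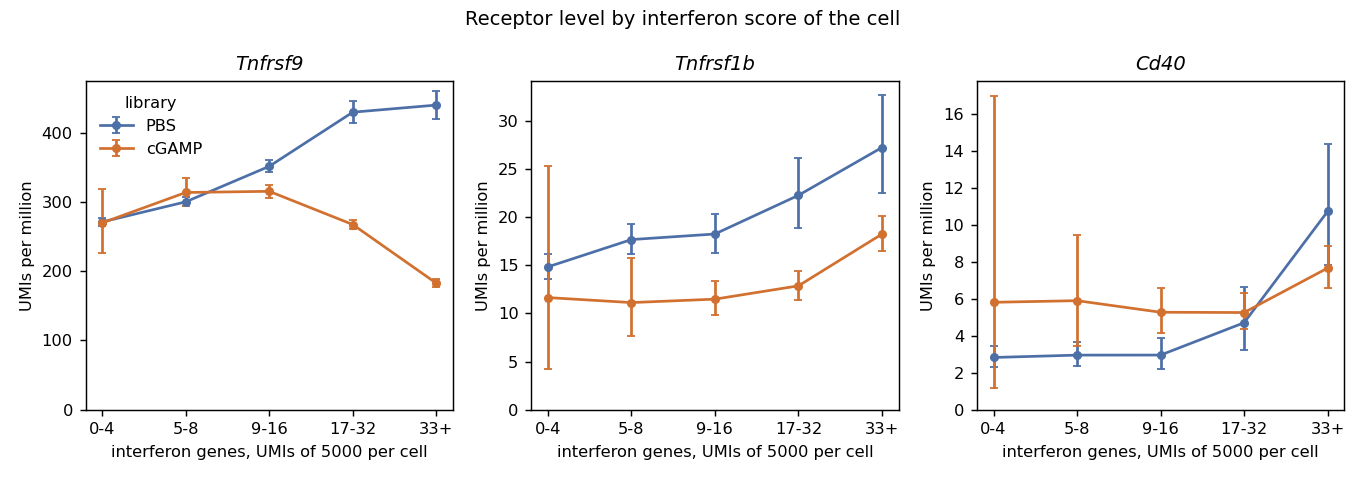
CPM of Tnfrsf9, Tnfrsf1b and Cd40 in ECs grouped by their interferon score (UMIs of 25 interferon-induced genes of 5000 per thinned cell), for the PBS (blue) and cGAMP (orange) libraries, with exact Poisson 95% intervals; the lowest cGAMP band holds 13 cells. The Tnfrsf9 lines part as the score goes up, to 440 CPM in PBS-treated and 183 CPM in cGAMP-treated ECs.

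By the score of 11 canonical NF-kB target genes, among them Nfkbia, Icam1, Vcam1 and Ccl2, Tnfrsf9 was higher in the highest tertile of both libraries. Within clusters its log2 ratio of highest over lowest tertile was 0.33 (0.29 to 0.37) in the PBS and 0.22 (0.17 to 0.28) in the cGAMP library. The kB letters shown above are those of the second start site of Tnfrsf9. No link between motif letters and the level of a receptor was tested, for this gene or the others. Cd40 was also higher in the highest tertile of both libraries, by 0.64 (0.21 to 1.09) and 0.38 (0.02 to 0.74). Tnfrsf1a and Ltbr were level, between -0.02 and 0.02. Tnfrsf1b was higher in the PBS library, by 0.32 (0.13 to 0.50), and at -0.11 (-0.35 to 0.13) in the cGAMP library. Tnfrsf12a was at 0.07 (-0.01 to 0.16) and 0.12 (0.03 to 0.20). Tnfrsf11b was at 0.31 (-0.05 to 0.68) in the PBS and -1.25 (-1.93 to -0.59) in the cGAMP library. The cGAMP library held 154 Tnfrsf11b UMIs, of which 39 were in 1 cell.

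The other receptors of the superfamily were mostly rarer than the 7. Of the 19 measured, 7 reached 5 CPM in one library or the other, with a median log2 ratio of 0.29. At least 1.5-fold higher in the cGAMP library were 2 of these 7, against 4.53% of all 9509 such genes. None was at least 1.5-fold lower, against 7.41%. Tnfrsf11a, the receptor of RANKL, was at 4.57 and 7.97 CPM (log2 ratio 0.80), and Tnfrsf21, a death-domain receptor, at 5.42 and 8.74 CPM (0.69). Tnfrsf11a passed the minimum in the cGAMP library only. Below the minimum, ratios went both ways, as for Tnfrsf25, at 4.20 and 1.63 CPM (-1.37, -1.70 to -1.05), and Fas, at 3.28 and 4.73 CPM (0.53). The decoy receptors Tnfrsf23 and Tnfrsf22 were at 58.8 and 66.1 CPM and at 13.7 and 16.7 CPM. Tnfrsf26, of the same cluster of mouse genes, was at 13.4 and 9.11 CPM (-0.56). Tnfrsf10b, the receptor of TRAIL, was at 28.1 and 29.95 CPM, and Eda2r at 7.09 and 9.33 CPM.

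Only 2 of the 14 measured ligands had at least 5 CPM. Of these, 1 was at least 1.5-fold higher in the cGAMP library, against 4.53% of all 9509 such genes. Tnfsf10, which encodes TRAIL, was at 22.1 CPM (21.2 to 23.1) and 36.9 CPM (35.5 to 38.5). Tnfsf12, which encodes TWEAK, the ligand of Tnfrsf12a, was at 39.2 CPM (37.9 to 40.5) and 40.4 CPM (38.9 to 42.04). Named here as ligands of the 7 receptors, Tnf was at 1.49 and 2.59 CPM, Ltb at 2.07 and 0.994 CPM, Tnfsf9, the ligand of Tnfrsf9, at 0.554 and 1.04 CPM, and Lta at 0.0543 and 0.0473 CPM.

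Downstream of the receptors, the adaptors and regulators were nearly level between the libraries. Of the 27 with at least 5 CPM none was past 1.5-fold in either direction, and their median log2 ratio was -0.01. Over all 9509 such genes, 4.53% were at least 1.5-fold higher and 7.41% lower. Casp8 was at 136 and 145 CPM, Cflar at 82.6 and 82.0 CPM and Tnip1 at 67.2 and 73.6 CPM. The largest ratios were those of Tank (-0.44), Birc2 (0.42), Tnfaip3 (0.34) and Cyld (-0.30). In the alternative NF-kB list, Relb was at 40.6 and 36.2 CPM, Nfkb2 at 32.99 and 33.3 CPM and Map3k14, which encodes NIK, at 5.61 and 5.07 CPM. Ccl21a was at 5.35 CPM in the PBS library and had no UMI in the cGAMP library, at least 113-fold lower against a floor of 3 UMIs in the library. In the PBS library 1 cell of the proliferative-like cluster held 485 of the 493 Ccl21a UMIs, so the value is that of 1 cell, and similar copies of the gene make the count uncertain.

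Of the 11 canonical NF-kB targets with at least 5 CPM, 4 were at least 1.5-fold higher in the cGAMP library, Il6 (log2 ratio 1.495), Cxcl2 (0.93), Vcam1 (0.77) and Sele (0.71), and none was lower, with a median of 0.50. Nfkbia was at 897 and 1293 CPM, Ccl2 at 202 and 249 CPM and Icam1 at 142 and 199.6 CPM. Of the 24 interferon genes with at least 5 CPM, 21 were at least 1.5-fold higher and none lower, with a median of 1.45. Beside both lists, 4.53% of all 9509 such genes were at least 1.5-fold higher and 7.41% lower. The log2 ratios of Irf7, Zbp1, Irgm1 and Ifit3 were 2.98, 2.58, 2.15 and 1.87, and Bst2 and Isg15 reached 2276 and 814 CPM in the cGAMP library.

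**Figure D5:**
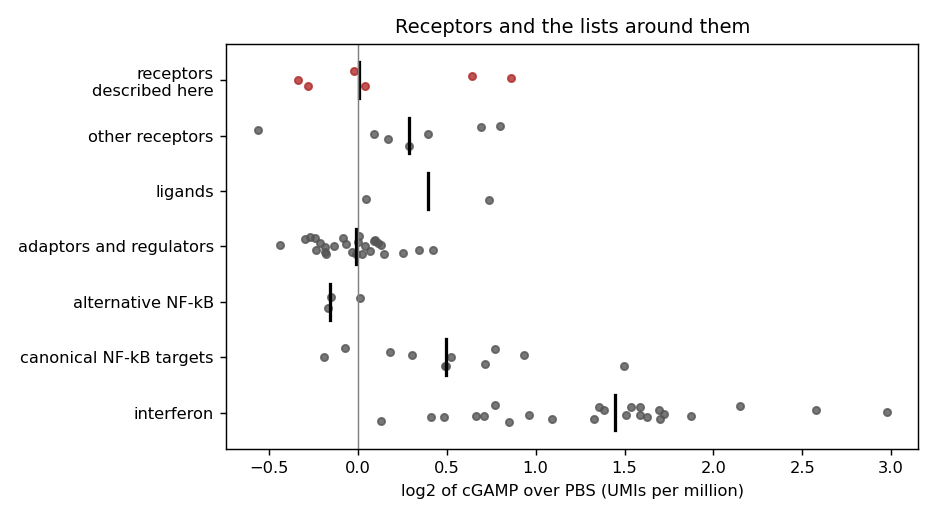
Log2 ratio of cGAMP over PBS of the 6 receptors with at least 5 CPM (red) and of the genes of the 6 lists around them (grey, 1 point a gene with at least 5 CPM in either library, shifted at random in height), with the median of each list as a bar; Ccl21a, with no UMI in the cGAMP library, is not drawn. The receptors lie between -0.33 and 0.86, the adaptors close to 0, and the interferon genes are all above 0.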

How the data were processed

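The authors processed the reads with Cell Ranger 3.0.0 on mm10 and with Seurat 3.1.1, dropped cells below 500 genes or above 10% mitochondrial UMIs, genes seen in fewer than 3 cells, and Pecam1-negative clusters. They deposited natural log values, that is the natural log of 1 plus the UMIs per 10000 UMIs of each EC. For the droplet kit the methods state version 3 and the labels 2. Whole UMIs were recovered from the exponential of each value over the smallest non-zero one of its cell, and 100% of the results were whole within 0.01.

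The 7 receptors and all lists were chosen with earlier results of these data known. UMIs were summed over the ECs of a library or cluster and scaled to CPM, with exact Poisson intervals for levels and exact conditional binomial intervals for ratios, computed with scipy 1.17.1 in Python 3.11.15. The functions were checked on simulated counts. A 1.5-fold difference stood in for a call. PCR and capture are not covered by these intervals. Clusters were made with Seurat 5.3.0 in R 4.3.3 from 1791 of 2500 variable genes, with integration anchors, 30 principal components and Louvain resolution 0.5. Of the 7 receptors 3 were among the variable genes and were left out. Leading genes and raised markers were read after 5 CPM had been added to both sides, averaged over the libraries. Naming thresholds were chosen with the clusters in view, doublets were kept, and rebuilt clusters need not be those of the study. Thinning was a random draw without replacement with a fixed seed, and ties in tertiles were broken by cell order. Named genes were all 7 receptors, the 4 genes of each list with the largest absolute log2 ratio among those with at least 5 CPM and the 3 with the highest CPM, the 3 genes most like each receptor by Pearson r of log2(CPM + 5) among genes with at least 20 CPM, and markers. The ligands of the receptors below 5 CPM, Tnfrsf25, Fas and the gene between Tnfrsf1a and Ltbr were chosen after their values were seen. Fixed bands of the interferon score, tertiles within clusters and removal of the top cell were added after the data had been seen. Some planned background genes are not reported here. Alternatives were mean per-cell CPM, median-of-ratios scaling, equal cluster proportions, removal of cells with leucocyte UMIs, a mitochondrial limit of 5%, thinning, other minima and folds, and other clusterings. Figures were drawn with matplotlib 3.10.9.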

Additional observations from a re-analysis of the deposited data

Results flagged for a closer look

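Tnfrsf9 was higher in the tertile of ECs with the highest interferon score in the PBS library and lower in that tertile in the cGAMP library, with log2 ratios of the highest over the lowest tertile of 0.47 and -0.87. Tnfrsf11b had a ratio of 1.65 in the PBS and -0.69 in the cGAMP library over all clusters, but in the cGAMP library 3 clusters had intervals above 0 and only 1 below, the Gal/Chga tip-like cluster, where 1 cell holds 39 of the 154 UMIs of the library. For 3 receptors the counting interval of the ratio of cGAMP over PBS lay above 0 in at least 1 cluster and below 0 in at least 1 other. The clusters above and below were 2 and 2 for Tnfrsf1a, 1 and 6 for Tnfrsf9, and 1 and 2 for Ltbr. The share of all genes with such intervals on both sides was not computed. Named below, for each side, is the cluster with the ratio farthest from 0 among these. Tnfrsf1a was at 0.34 in the Pgf/Bnip3 tip-like cluster and -0.23 in the stalk-like cluster led by Ackr1 and Selp. Tnfrsf9 was at 0.52 in the Igfbp5/Ctsh cluster, which holds 49 PBS-treated and 52 cGAMP-treated ECs, and at -0.57 in the Pgf/Bnip3 tip-like cluster. Ltbr was at 0.25 in the Gal/Chga tip-like cluster and -0.25 in the Ung/Hells cluster. These differences between libraries or clusters were not tested, since each library is 1 mouse.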

How the results depend on the processing

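No paired analysis was possible because each condition is 1 library, and no replicate could be left out. The directions of Tnfrsf1b, Tnfrsf9, Tnfrsf11b, Tnfrsf12a and Cd40 over all ECs were kept under every alternative run. Those of Tnfrsf1a and Ltbr, which lay close to 0, were not. Values outside the counting interval were, with median-of-ratios scaling, 0.11 for Tnfrsf1a, -0.27 for Tnfrsf9, 0.71 for Tnfrsf12a and 0.047 for Ltbr. With equal cluster proportions they were -0.039 for Tnfrsf1a, -0.27 for Tnfrsf9 and -0.62 for Tnfrsf11b, and with a mitochondrial limit of 5% they were 0.10 for Tnfrsf1a, -0.42 for Tnfrsf9 and 0.57 for Tnfrsf12a. Thinning to 5000 UMIs gave -0.44 for Tnfrsf1b, -0.30 for Tnfrsf9, -0.11 for Ltbr and 0.61 for Cd40. Tnfrsf9 was at -0.26 by the mean of per-cell CPM and -0.27 without cells that carried a leucocyte UMI, and Tnfrsf11b at -1.36 without the top cells. The cause of these shifts was not tested. The count of receptors at least 1.5-fold higher was 1 with a minimum of 20 CPM and 0 at 2-fold, and the count lower was 1 with no minimum, which lets in Tnfrsf11b. With a minimum of 20 CPM, 0 other receptors were higher and 0 alternative NF-kB genes lower. Without integration, and with cluster proportions held equal, the ratio of Tnfrsf9 was -0.08. At resolution 0.3, where the highest cluster was led by Pgf and Gal, the level of Tnfrsf9 in its highest cluster over the other ECs was 0.81 on the log2 scale in place of 1.37. That of Tnfrsf12a was 0.57 in place of 1.06, and without integration the values were 0.71 for Tnfrsf9 and 0.49 for Tnfrsf12a. Tnfrsf1b was 0.80 in its highest cluster, led by Pgf, and 0.42 and 0.46 in one led by Igfbp5 at resolution 0.3 and without integration. Cd40 was highest in the Igfbp5/Ctsh cluster (0.94), at resolution 0.8 in a cluster led by the interferon genes Rsad2 and Ifit2 and Cxcl10 (1.14), and without integration in one led by Gja4 (0.12). Depth limits Cd40 and Tnfrsf11b most, with 314 and 444 UMIs in the PBS library.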
